A study of Mus musculus with 14 samples.

Results

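The genes described here are 7 chromatin regulators of mouse embryonic stem cells, Cbx5, Chd2, Jmjd1c, Zfp281, Bend4, Sirt7 and Bahcc1. They were chosen by name, with earlier results of these data known, from a panel of 472 genes. Transcripts of the panel had been enriched by hybrid selection, in which probes pull chosen transcripts out of a poly(A)+ library before sequencing. The samples were 14 clonal lines of female embryonic stem cells, all derived from the parental line F1 2-1, whose parents were of strain 129 and of Castaneus (CAST), so that a read over a strain difference can be assigned to the 129 or the CAST copy of a gene. The study asked which genes an enhancer acts on, by deleting it on 1 or both chromosomes and reading each copy apart.

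Each clone carries the deletion of 1 enhancer. The Chen2008-1 set has 8 clones, each with the deletion on a single chromosome: 6 with the genotype +/- (B8, D3, E3, E7, G3 and H7) and 2 with the genotype -/+ (D2 and D10). The Chen2008-25 set has 6 clones: 5 with both copies of the enhancer deleted, listed as KO (B4, C4, G2, H2 and H4), and 1 with the genotype -/+ (E6). Signs were read as 129 before CAST, an order that the genotype table does not state. Trim28, a neighbour of the Chen2008-1 deletion, had a lower 129 to CAST ratio in the -/+ than in the +/- clones (log2 difference -2.26, SE 0.05), which is the direction this reading gives. No clone is free of both deletions, so each set serves as the control of the other. The deletion, the origin of the clones and a number in the column headers change together, and their parts in a difference between the sets cannot be told apart.

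All cells were grown in serum-free medium that held leukaemia inhibitory factor (LIF), a MEK inhibitor and a GSK3 inhibitor, on gelatin and laminin. Assigned reads per clone ran from 135881 in D10 to 1331965, and a single gene of the 7 had 182 to 3498 reads in a clone (median 1475.5). Of 32 markers of stem cells, early differentiation and feeder fibroblasts, 0 were in the panel, so the cell type named in the labels was not tested. These are bulk RNA samples, in which fewer cells with a transcript and less transcript per cell cannot be told apart. All 7 genes passed the minimum of 10 reads per clone on average, as did 448 genes of the panel. Levels are given in CPM, which are assigned reads scaled to the library size, and depend on probe capture and on the number of strain differences in each transcript, so they are compared between clones and not between genes.

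Chromatin regulators set how DNA is packed and read. Some proteins of this kind bind histone marks, some add or remove them, some slide nucleosomes with energy from ATP, and some are DNA-binding factors that bring such enzymes to their targets. In embryonic stem cells these activities keep lineage genes silent while leaving them able to switch on, and they act in concert with the pluripotency transcription factors.

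The start regions of the genes are shown first, for the 3 genes with the largest differences between the sets (Cbx5, Jmjd1c and Bahcc1) and for the gene whose copies differed most in their change (Bend4). Each runs from 250 bases before to 50 bases after the transcription start, 5′ to 3′ on the strand of the gene, and comes from RefSeq on build GRCm38.p6. This build is of the mouse reference strain, neither 129 nor CAST, and is later than the build of the counts. Capitals mark CCAAT boxes (CCAAT or, on the other strand, ATTGG) and GC boxes (GGGCGG or CCGCCC), with boxes that overlap counted apart.
Cbx5, chr15:103239803-103240102, minus strand, the first of 2 entries: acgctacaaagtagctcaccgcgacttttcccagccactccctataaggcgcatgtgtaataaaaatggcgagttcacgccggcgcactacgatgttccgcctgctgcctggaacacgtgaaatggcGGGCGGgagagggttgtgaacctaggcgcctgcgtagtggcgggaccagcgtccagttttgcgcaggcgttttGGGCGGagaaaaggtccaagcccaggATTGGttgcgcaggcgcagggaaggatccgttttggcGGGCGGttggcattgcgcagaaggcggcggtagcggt
Jmjd1c, chr10:67126838-67127137, plus strand, the first of 2 entries: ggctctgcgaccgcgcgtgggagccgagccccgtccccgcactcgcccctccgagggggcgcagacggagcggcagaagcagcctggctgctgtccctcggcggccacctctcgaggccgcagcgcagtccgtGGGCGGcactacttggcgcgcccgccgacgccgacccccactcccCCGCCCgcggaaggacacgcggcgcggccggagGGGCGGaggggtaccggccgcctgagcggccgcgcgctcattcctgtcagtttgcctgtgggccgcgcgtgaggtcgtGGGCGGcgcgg
Bahcc1, chr11:120232697-120232996, plus strand: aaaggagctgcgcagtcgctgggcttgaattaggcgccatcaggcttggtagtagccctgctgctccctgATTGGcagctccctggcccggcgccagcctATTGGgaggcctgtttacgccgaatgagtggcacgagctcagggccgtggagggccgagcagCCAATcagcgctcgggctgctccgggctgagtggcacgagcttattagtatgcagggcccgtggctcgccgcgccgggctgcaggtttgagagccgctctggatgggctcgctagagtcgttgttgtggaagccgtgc
Bend4, chr5:67427750-67428049, minus strand: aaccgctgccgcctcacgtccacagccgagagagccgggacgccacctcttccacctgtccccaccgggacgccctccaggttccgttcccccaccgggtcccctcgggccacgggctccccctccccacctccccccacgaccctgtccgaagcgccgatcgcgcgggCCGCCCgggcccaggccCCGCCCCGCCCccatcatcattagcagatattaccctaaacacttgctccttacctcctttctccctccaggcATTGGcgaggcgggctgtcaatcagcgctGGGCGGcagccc

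Bahcc1, which was lower in the Chen2008-25 set, held 3 CCAAT boxes and 0 GC boxes in this window. The 3 genes shown that were higher there held 3 GC boxes (Cbx5), 4 (Jmjd1c) and 4 (Bend4), with 1, 0 and 1 CCAAT boxes. Of 32851 start regions of the same length in the table, 37.4% held a CCAAT box and 35.7% a GC box, so either box is common. Zfp281 held 4 GC boxes and 1 CCAAT box, and Sirt7 held 1 GC box and 0 CCAAT boxes. A match describes the letters of the window and says nothing of binding. The table had sequences for 6 of the 7 genes.

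Between the sets, 5 of the 7 regulators were higher in the Chen2008-25 clones (Cbx5, Jmjd1c, Chd2, Bend4 and Zfp281) and 2 were lower (Bahcc1 and Sirt7). Cbx5 was 1.91-fold higher and Bahcc1 1.96-fold lower, while Sirt7 was 1.12-fold lower. All 7 passed edgeR's quasi-likelihood test on summed reads, adjusted by Benjamini and Hochberg over the panel. The background was high, since 63.8% of the 448 panel genes passed the same test (29.5% higher, 34.4% lower). The median log2 difference was 0.53 over the 7 genes and -0.01 over all genes tested, and the median size of the difference was 0.73 against 0.37. Levels were scaled with factors from this same panel, which sets the panel's own centre in advance. Higher and lower are thus relative to the panel. The 7 genes were chosen with earlier results of these data known, so their contrast with the panel is only a description.

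**Figure D1:**
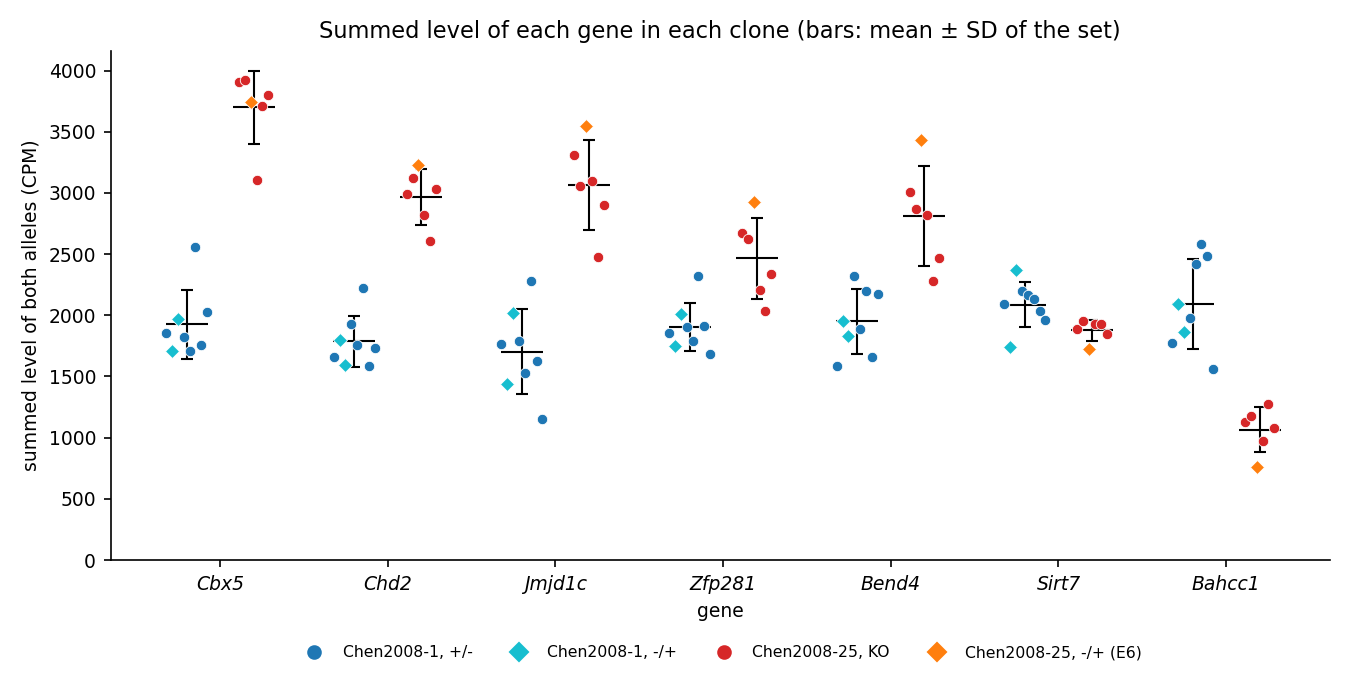
Summed level of both alleles in CPM (vertical axis) for each of the 7 genes (horizontal axis) in each of 14 clones, coloured by enhancer set and genotype, with bars at the mean ± SD of the set (n = 8 and n = 6). The sets do not overlap for Cbx5, Chd2, Jmjd1c and Bahcc1, and the -/+ clone of Chen2008-25 (E6) lies at an edge of its set for 6 of the 7 genes.

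Cbx5 encodes the heterochromatin protein HP1 alpha, which binds methylated histone tails and compacts silent chromatin. In the Chen2008-1 clones it ran from 1707 CPM in D10 to 2561 CPM in E7, with a median of 1841 CPM. In the Chen2008-25 clones it ran from 3108 CPM in G2 to 3920.2 CPM in C4, with a median of 3771 CPM. Every Chen2008-25 clone was above every Chen2008-1 clone, and in each set a single clone stood off: E7 on the high side of one and G2 on the low side of the other. Means were 1927 ± 281 CPM (SD, n = 8) and 3698 ± 302 CPM (SD, n = 6), a log2 difference of 0.94 (SE 0.08, adjusted p = 3.04e-08, edgeR).

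Chd2 encodes a chromodomain helicase that moves nucleosomes with energy from ATP. Its Chen2008-1 clones ran from 1587 CPM in G3 to 2226 CPM in E7 (median 1747 CPM). Its Chen2008-25 clones ran from 2604 CPM in H2 to 3232 CPM in E6 (median 3015 CPM). Again the ranges did not meet, and E7 was the Chen2008-1 clone nearest to the other set. The log2 difference was 0.73 (SE 0.07, adjusted p = 1.38e-07, edgeR), or 1.66-fold.

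Jmjd1c belongs to the JmjC family, whose members include histone lysine demethylases. It was the most variable of the 7 within the Chen2008-1 set, from 1156 CPM in H7 to 2279.6 CPM in E7 (median 1697 CPM), with a coefficient of variation of 20.4%. The Chen2008-25 clones ran from 2480.2 CPM in H2 to 3548 CPM in E6 (median 3079 CPM). The sets stayed apart, by a margin of less than their SDs of 348 and 364 CPM. The log2 difference was 0.84 (SE 0.12, adjusted p = 5.61e-06, edgeR), or 1.79-fold.

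Bend4 encodes a protein with a BEN domain, a fold found in several DNA-binding chromatin factors. It ran from 1585 CPM in B8 to 2321 CPM in D3 in the Chen2008-1 set (median 1921 CPM). In the Chen2008-25 set it ran from 2281 CPM in H2 to 3436 CPM in E6 (median 2845 CPM). The ranges overlapped only through H2, which lay below D3 of the other set. Here the log2 difference was 0.53 (SE 0.10, adjusted p = 0.000118, edgeR).

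Zfp281 encodes a zinc-finger transcription factor that binds DNA together with pluripotency factors and with co-repressor complexes. Levels ran from 1680.3 CPM in H7 to 2318 CPM in E7 among the Chen2008-1 clones (median 1880.3 CPM). Among the Chen2008-25 clones they ran from 2034 CPM in H2 to 2927 CPM in E6 (median 2481 CPM). The ranges overlapped: H2 and G2 of Chen2008-25 lay below E7 of Chen2008-1. With a log2 difference of 0.37 (SE 0.08, adjusted p = 0.000773, edgeR), Zfp281 had the smallest difference of the 5 genes that were higher.

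Sirt7 encodes a nuclear sirtuin, an NAD-dependent deacetylase of histones and other proteins found mainly in the nucleolus. It ran from 1738 CPM in D10 to 2369 CPM in D2 in the Chen2008-1 set (median 2112 CPM), so the 2 clones with the -/+ genotype stood at opposite ends. In the Chen2008-25 set it ran from 1723 CPM in E6 to 1955 CPM in C4 (median 1907 CPM). All 6 Chen2008-25 values lay inside or just below the Chen2008-1 range. The log2 difference of -0.16 (SE 0.06) had an adjusted p of 0.0303 (edgeR). This call was lost with median-of-ratios size factors (-0.13, adjusted p = 0.0844, edgeR) and when any 1 of 8 clones was left out (B8, D2, D3, E7, G3, B4, E6 or H4).

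Bahcc1 encodes a large nuclear protein with a BAH domain, a module that reads histone marks. It ran from 1563 CPM in H7 to 2579 CPM in E7 in the Chen2008-1 clones (median 2036 CPM). In the Chen2008-25 clones it ran from 759 CPM in E6 to 1279 CPM in H2 (median 1104 CPM). Every Chen2008-25 clone was below every Chen2008-1 clone, with a log2 difference of -0.97 (SE 0.12, adjusted p = 2.05e-06, edgeR). In all, the clones of the sets did not overlap for 4 of the 7 genes (3 higher, 1 lower), against 31.7% of panel genes (13.6% higher, 18.1% lower).

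Each copy was then tested on its own. On the 129 allele 6 of the 7 genes passed (5 higher, 1 lower), against 56.6% of the 412 panel genes tested on that allele (26.2% higher, 30.3% lower). On the CAST allele 5 passed (4 higher, 1 lower), against 59.7% of 395 genes (26.6% higher, 33.2% lower). Cbx5, Chd2, Jmjd1c and Zfp281 were higher in the Chen2008-25 set on both copies and Bahcc1 was lower on both, so for these genes the difference was not limited to 1 chromosome.

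**Figure D2:**
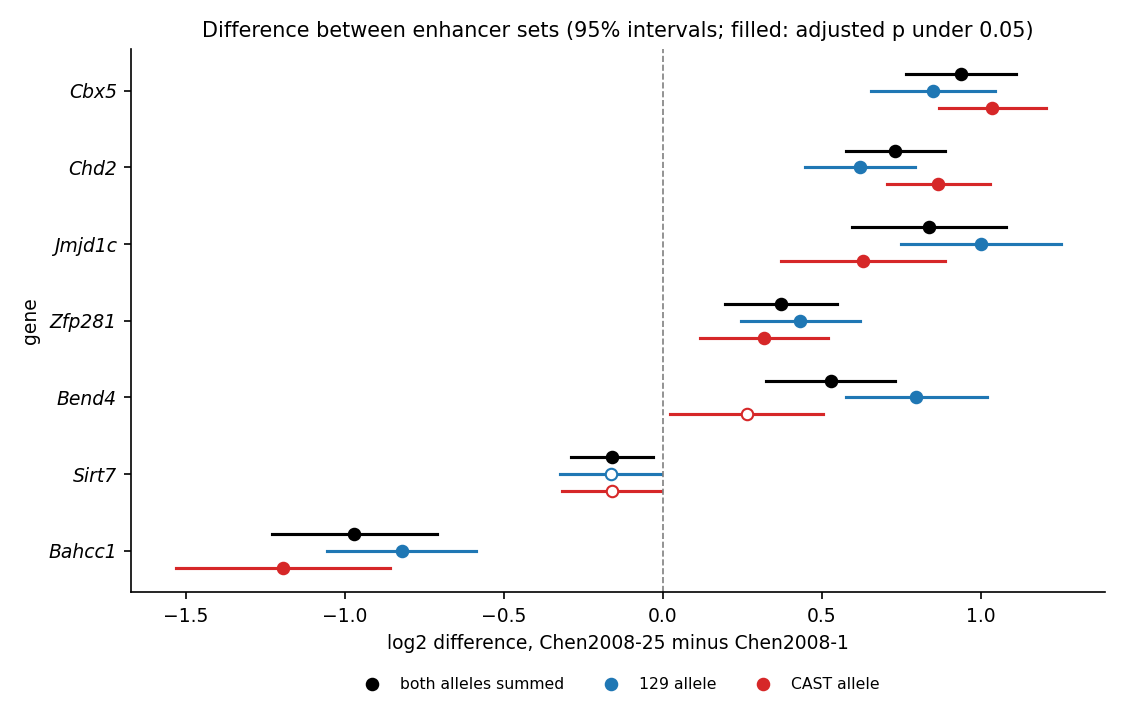
Log2 difference between the sets, Chen2008-25 minus Chen2008-1 (horizontal axis), for each gene (vertical axis), with both alleles summed, the 129 allele and the CAST allele drawn apart; lines are 95% intervals and filled points have an adjusted p under 0.05. Cbx5, Chd2, Jmjd1c and Zfp281 lie to the right of 0 and Bahcc1 to the left on both alleles, and the CAST allele of Bend4 and both alleles of Sirt7 are open.

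Cbx5 was higher on both copies, with a log2 difference of 0.85 (SE 0.09) for 129 and 1.04 (SE 0.08) for CAST. Its 129 copy went from 1078 ± 180 to 1946 ± 181 CPM and its CAST copy from 849 ± 112 to 1752 ± 131 CPM (SD, n = 8 and n = 6). Neither copy overlapped between the sets. For Chd2, the 129 copy differed by 0.62 (SE 0.08) and the CAST copy by 0.87 (SE 0.08), and here too the clones of the sets did not overlap on either copy.

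Jmjd1c showed the opposite order, with 1.00 (SE 0.12) for 129 and 0.63 (SE 0.12) for CAST. Its 129 copy did not overlap between the sets, with at most 1162 CPM (E7) in Chen2008-1 and at least 1390.2 CPM (H2) in Chen2008-25. On CAST, H2 (1090.1 CPM) lay below E7 (1117 CPM). Zfp281 differed by 0.43 (SE 0.09) on 129 and 0.32 (SE 0.10) on CAST, with overlap on both.

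Bend4 differed between the sets mainly by its 129 copy. That copy was 883 ± 132 CPM in Chen2008-1 and 1522 ± 257 CPM in Chen2008-25 (SD, n = 8 and n = 6), with no overlap and a log2 difference of 0.80 (SE 0.11, adjusted p = 3.45e-06, edgeR). Its CAST copy was 1068 ± 193 and 1291 ± 198 CPM, with wide overlap. The CAST difference of 0.26 (95% interval 0.02 to 0.50) had an adjusted p of 0.0546 (edgeR). It passed with median-of-ratios size factors (0.29, adjusted p = 0.0344, edgeR) and without any 1 of D3, E7, H7, H2 or H4.

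Bahcc1 differed more on its CAST than on its 129 copy. The 129 copy went from 1217 ± 209 CPM in Chen2008-1 to 689 ± 89.7 CPM in Chen2008-25, a log2 difference of -0.82 (SE 0.11). The CAST copy went from 878 ± 161 to 377 ± 106 CPM, a difference of -1.20 (SE 0.16). Among the Chen2008-25 clones the CAST level was 227 CPM in E6 (137 reads) and 262 CPM in G2 (61 reads). The other 4 had 405 to 482 CPM (129 to 455 reads). Sirt7 differed by -0.16 on each copy (SE 0.08 for 129 and 0.07 for CAST), and neither passed (adjusted p = 0.0705 and 0.0677, edgeR).

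The 129 share of a gene's assigned reads compares the copies inside a clone, where depth and culture are common to both. Over all 14 clones, 5 of the 7 genes had unequal copies (4 with more 129 RNA, 1 with more CAST RNA), against 72.3% of the 448 panel genes (40% toward 129, 32.4% toward CAST), so unequal copies were the rule in the panel. A strain difference in RNA and a difference in how reads were assigned to strains cannot be told apart here. Bahcc1 leaned furthest to 129, with a 129 over CAST log2 ratio of 0.62 (SE 0.06) and a share above 50% in all 14 clones. Chd2 (0.31, SE 0.04), Cbx5 (0.25, SE 0.04) and Jmjd1c (0.23, SE 0.06) also leaned to 129. Zfp281 leaned to CAST (-0.29, SE 0.04), with D10 as the only clone above 50%. Sirt7 (-0.01, SE 0.04) and Bend4 (-0.05, SE 0.08) did not pass.

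**Figure D3:**
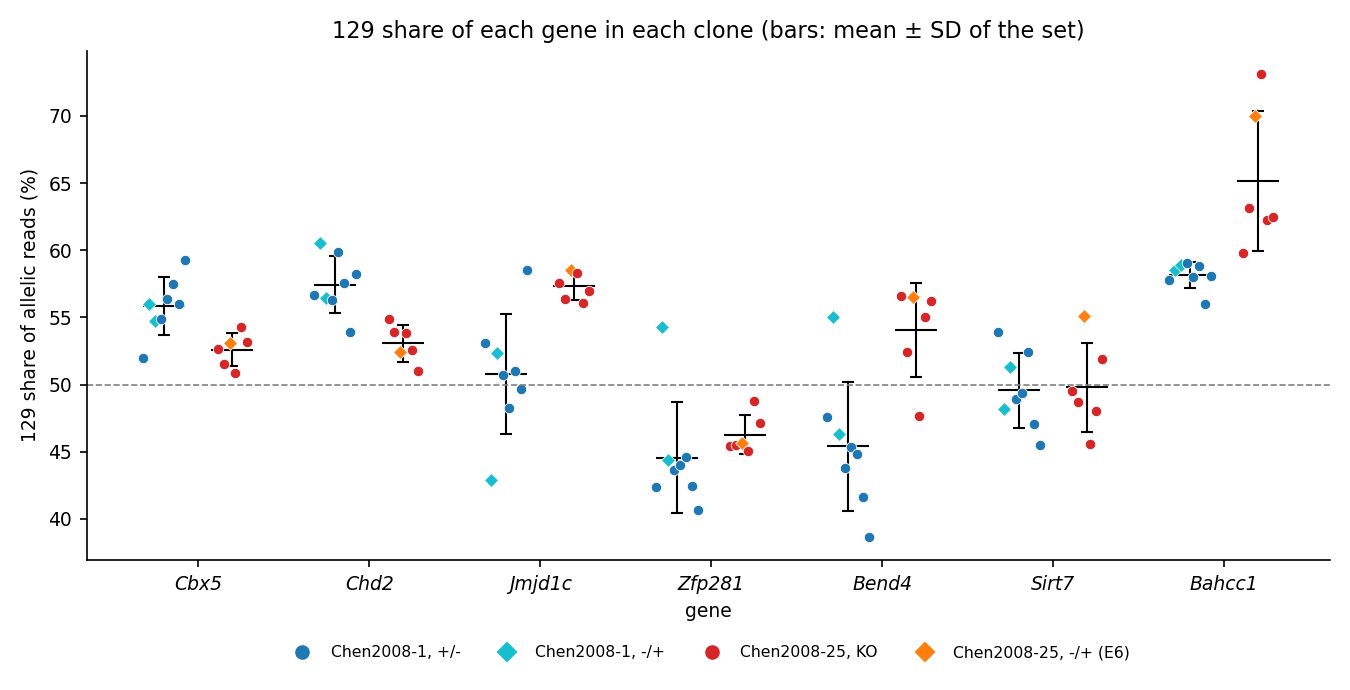
129 share of assigned reads in percent (vertical axis, not starting at 0) for each gene (horizontal axis) in each of 14 clones, coloured by set and genotype, with bars at the mean ± SD of the set and a dashed line at 50%. The sets do not overlap for Bahcc1, and in the Chen2008-1 set the shallow clone D10 stands above the others for Zfp281 and Bend4 and below them for Jmjd1c.

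The shares differed between the sets for 4 of the 7 genes, Bend4, Bahcc1, Jmjd1c and Chd2, which passed the test of the ratio (3 toward 129, 1 toward CAST in Chen2008-25). In the panel 12.1% of genes passed this test (5.8% toward 129, 6.25% toward CAST). The median size of the change in ratio was 0.24 on the log2 scale over the 7 genes and 0.16 over all genes tested. The clones of the sets did not overlap for 1 of the 7 genes, which was higher in Chen2008-25, against 3.75% of the 427 panel genes with a share in every clone (1.64% higher, 2.11% lower).

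Bend4 leaned to CAST in one set and to 129 in the other. Its 129 share ran from 38.7% in H7 to 55.1% in D10 in the Chen2008-1 clones (median 45.1%) and from 47.6% in G2 to 56.6% in B4 in the Chen2008-25 clones (median 55.6%). All Chen2008-1 clones but D10 were under 50%, and all Chen2008-25 clones but G2 were over it. The log2 difference in ratio was 0.55 (SE 0.10, adjusted p = 0.000779, edgeR), and it was 0.59 without D10 and 0.61 without G2.

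Bahcc1 was the gene whose shares did not overlap. The Chen2008-1 clones lay between 56.0% (G3) and 59.0% (D3), a narrow range with an SD of 0.972 percentage points. The Chen2008-25 clones ran from 59.8% in B4 to 73.1% in G2 (median 62.8%). E6 (70.0%, 95% Wilson interval 65.7 to 74.0%) and G2 (67.0 to 78.5%) were high, and the other 4 were at 63.2% or less. These intervals take reads as independent and are too narrow, since low counts were mostly even. The log2 difference in ratio was 0.37 (SE 0.10, adjusted p = 0.0133, edgeR), 0.30 without E6 and 0.31 without G2.

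For Jmjd1c the share was near even in Chen2008-1, from 42.9% in D10 to 58.5% in H7 (median 50.9%). It was tight and above 50% in Chen2008-25, from 56.0% in H2 to 58.5% in E6 (median 57.3%). The sets overlapped through H7 alone. Here the log2 difference in ratio was 0.35 (SE 0.08, adjusted p = 0.00457, edgeR).

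Chd2 was nearer to even copies in the Chen2008-25 set: its share went from 53.9 to 60.5% in Chen2008-1 (median 57.1%) to 51.0 to 54.9% in Chen2008-25 (median 53.2%). The lowest Chen2008-1 clone, G3, lay inside the range of the other set. The log2 difference in ratio was -0.24 (SE 0.06, adjusted p = 0.0122, edgeR). Cbx5 had shares of 52.0% (B8) to 59.3% (H7) in Chen2008-1 and 50.8% (G2) to 54.3% (H2) in Chen2008-25, with medians of 56.0% and 52.9%. Its ratio differed by -0.17 (95% interval -0.30 to -0.05), with an adjusted p of 0.06 (edgeR). It passed with a minimum mean of 50 reads (adjusted p = 0.046, edgeR) and without B8 (adjusted p = 0.0204, edgeR).

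Zfp281 did not pass (0.14, 95% interval -0.02 to 0.29, adjusted p = 0.315, edgeR). D10 had 221 reads of Zfp281 and a share of 54.3% (95% Wilson interval 47.7 to 60.7%), against 40.6 to 44.6% in the other 7 Chen2008-1 clones and 45.0 to 48.8% in the Chen2008-25 clones. D10 thus lay above every other clone of either set, though its interval takes reads as independent and is too narrow. It was the highest or lowest Chen2008-1 clone in 129 share for 4 of the 7 genes and for 55.9% of 435 panel genes. Without D10 the Zfp281 difference was 0.18 and passed (adjusted p = 0.0427, edgeR). Sirt7 ran from 45.5% (H7) to 53.9% (B8) in Chen2008-1 and from 45.6% (G2) to 55.1% (E6) in Chen2008-25. The median was 49.1% in both sets, with a log2 difference in ratio of -0.00 (95% interval -0.18 to 0.18).

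**Figure D4:**
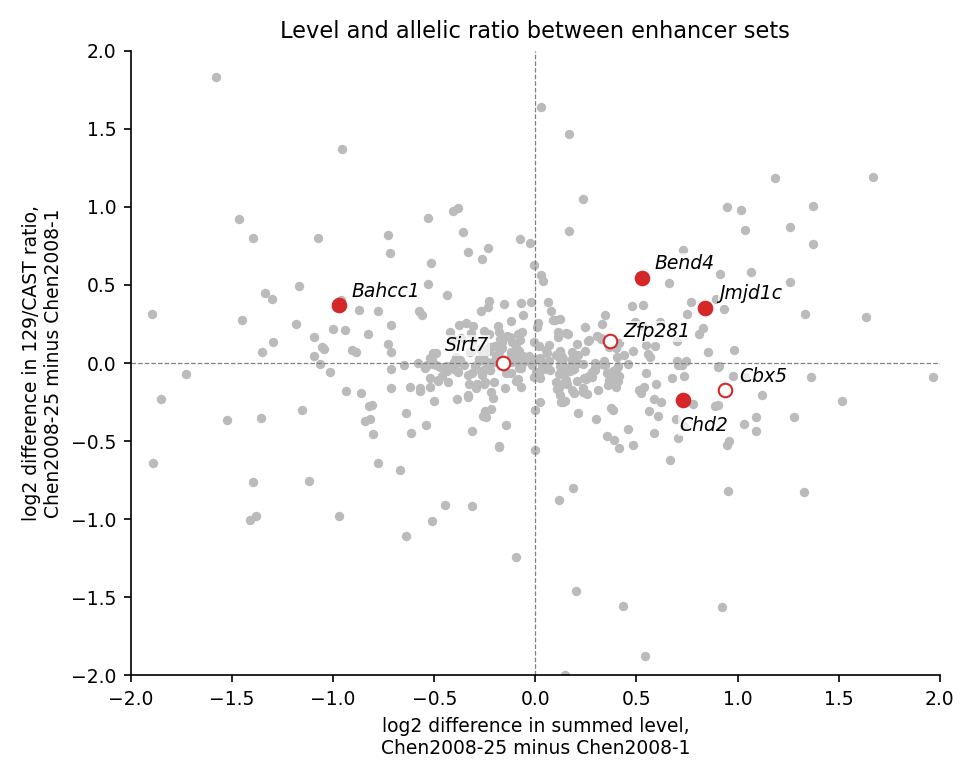
Log2 difference in summed level (horizontal axis) and in the 129 over CAST ratio (vertical axis) between the sets, Chen2008-25 minus Chen2008-1, for panel genes (grey) and the 7 regulators (red, filled where the ratio passed). Of 448 genes tested, 431 are inside the plotted range of 2 on either side of 0 and 17 are outside it; Bend4 and Jmjd1c lie higher on both axes, Chd2 is higher in level and lower in ratio, and Bahcc1 is lower in level and higher in ratio.

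Genotypes can be compared inside a set, where the same enhancer was deleted and the chromosome or the number of copies deleted differs. None of the 7 genes passed any of the 4 tests of this kind with edgeR. The panel gave few calls as well: 0% for the level by deleted chromosome in Chen2008-1 (0 genes, 13 at an unadjusted p under 0.05, and 0 with DESeq2), 0.893% for the ratio, 0.223% for the level of KO against heterozygote in Chen2008-25 and 0.223% for the ratio. The called genes were Trim28, Zbtb45, Ube2m and Zfp446 for Chen2008-1 and B3gnt7 for Chen2008-25.

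**Figure D5:**
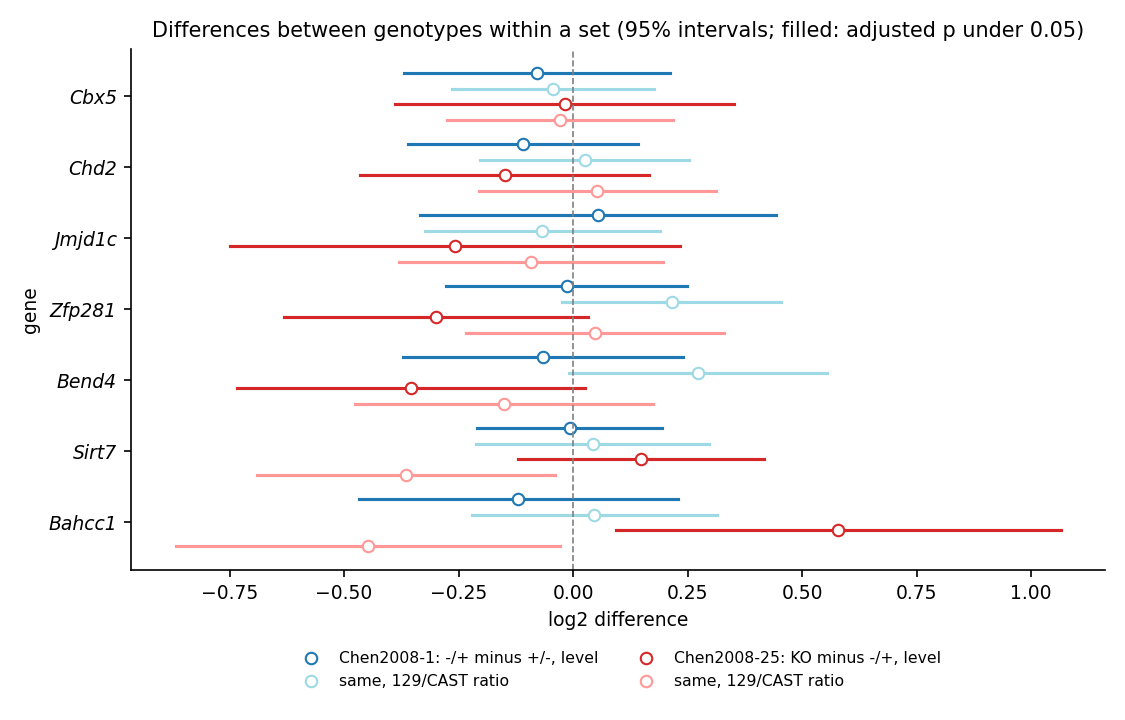
Log2 differences between genotypes inside a set (horizontal axis) in summed level and in 129 over CAST ratio for each gene (vertical axis), with 95% intervals; blue is -/+ minus +/- in Chen2008-1 (2 and 6 clones), and red is KO minus -/+ in Chen2008-25 (5 clones and 1 clone). All points are open (adjusted p above 0.05), and the intervals for Bahcc1 (level and ratio) and Sirt7 (ratio) in Chen2008-25 leave out 0 before adjustment.

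In the Chen2008-1 set the level differences between -/+ and +/- clones ran from -0.12 (Bahcc1) to 0.05 (Jmjd1c) on the log2 scale. For Cbx5 the -/+ clone D10 had 1707 CPM, just below the 1712 to 2561 CPM of the +/- clones. The -/+ clone D2 had 1967 CPM, inside that range. The interval of the Cbx5 difference was -0.37 to 0.21, which does not show that the genotypes were alike. Ratio differences ran from -0.07 (Jmjd1c) to 0.27 (Bend4), with 0.22 for Zfp281, and they depended on which -/+ clone was kept. The Bend4 difference was 0.14 without D10 and 0.65 without D2, that of Zfp281 was 0.074 and 0.65, and that of Jmjd1c was 0.051 and -0.50. For Bend4, D10 had a share of 55.1% and D2 one of 46.3%, the latter within the 38.7 to 47.6% of the +/- clones.

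In the Chen2008-25 set the heterozygote is a single clone, E6, so its spread was taken from the other groups. Bahcc1 had 759 CPM in E6 and 974, 1079.9, 1127, 1176 and 1279 CPM in the KO clones G2, H4, B4, C4 and H2. E6 was the lowest, and the log2 difference of 0.58 (95% interval 0.09 to 1.06) had an adjusted p of 0.764 (edgeR). Its ratio difference was -0.45 (95% interval -0.87 to -0.03, adjusted p = 0.742, edgeR), although the KO clone G2 had a higher 129 share than E6.

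Bend4 and Zfp281 lay on the other side. Bend4 had 3436 CPM in E6 and 2281, 2467, 2820.0, 2870.1 and 3004 CPM in H2, H4, G2, C4 and B4, a log2 difference of -0.35 (95% interval -0.73 to 0.03). Zfp281 had 2927 CPM in E6 and 2034 to 2673 CPM in the KO clones, a difference of -0.30 (-0.63 to 0.03). E6 was also above the KO clones for Chd2 and Jmjd1c. Sirt7 was lowest in E6, and its 129 share was highest there (55.1% against 45.6 to 51.9% in the KO clones), a ratio difference of -0.36 (adjusted p = 0.742, edgeR). In all, E6 was the highest or the lowest Chen2008-25 clone for 6 of the 7 genes (4 highest, 2 lowest), and it was so for 36.2% of the 448 panel genes.

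Comparing the KO clones with the +/- clones of Chen2008-1 alone, which leaves out E6, D2 and D10, kept the side of the threshold for all 7 genes in summed level, in each allele and in ratio. Cbx5, Chd2, Jmjd1c, Zfp281 and Bend4 stayed higher and Bahcc1 lower in this comparison.

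Of a list of 299 other chromatin regulators, 3 were in the panel under the symbol listed. Older symbols were not searched. Phf15, an older symbol of the listed Jade2, was lower on its CAST copy in Chen2008-25 (log2 difference -0.83, SE 0.18) and is not counted below. Suz12, a core subunit of the Polycomb repressive complex that methylates histone tails, was higher in Chen2008-25 by 1.26 on the log2 scale (SE 0.20, adjusted p = 3.27e-05, edgeR), on a mean of 59.2 reads per clone. Trim28, a co-repressor that recruits histone methyltransferases and lies beside the Chen2008-1 deletion, was higher by 0.41 (SE 0.12). Its CAST copy passed (0.65, SE 0.24) and its 129 copy did not (0.21, SE 0.18). Tonsl, a reader of newly made histones at replication forks, was lower (log2 difference -0.52, SE 0.05). Of the 3 matched by symbol, 2 were higher, Trim28 beside a deletion among them, and 1 was lower, against 29.5% and 34.4% of the panel.

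Within the sets, the members varied together to different degrees. The Pearson correlation of log2 CPM after removing the mean of each set, over 14 clones that share library depth and scaling between genes, ran from -0.37 (Bahcc1 and Bend4) to 0.84 (Jmjd1c and Zfp281) over the 21 pairs of members, with a median of 0.26 against -7.6e-05 over all pairs of panel genes. Chd2 and Bend4 followed with 0.73. For 6 of the members, the panel genes whose levels followed them most closely are given here. They were Tcf20 (0.88) and Itpr1 (0.86) for Jmjd1c, Plec (0.88) and Adrbk2 (0.79) for Bend4, and Limch1 (0.87) and Net1 (0.80) for Zfp281. For Chd2 they were Phactr4 (0.79) and Kif14 (0.75). For Sirt7 they were D730001G18Rik (0.75) and Blcap (0.74), and for Bahcc1 Smug1 (0.72) and Epb4.1 (0.71). Each is the best match among the panel genes tested and is given as a description.

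The members lie on 6 chromosomes: Cbx5 on chromosome 15, Chd2 on 7, Jmjd1c on 10, Zfp281 on 1, Bend4 on 5, and Sirt7 and Bahcc1 both on 11. Trim28, beside the Chen2008-1 deletion, is also on chromosome 7, and B3gnt7, called between genotypes of Chen2008-25, is also on chromosome 1. Neighbours of the members in the panel differed between the sets in some cases and not in others. Around Bahcc1, 28 of 51 panel genes within 1 Mb were lower in Chen2008-25 (54.9%), 7 were higher and 16 did not pass, against 34.4% lower over the panel. Sirt7 lies in the same stretch, and 24 of the 43 panel genes around it were lower (55.8%), 6 were higher and 13 did not pass. These windows share 42 genes and each holds the other member, so they are not separate observations. The panel genes nearest to Bahcc1, Slc38a10 (-0.05, SE 0.05) and Actg1 (-0.09, SE 0.09), were among those that did not pass. Around Cbx5, 8 of 24 were higher and 7 lower, and around Zfp281 4 of 13 were higher and 5 lower. Around Bend4 2 of 6 were higher and 1 lower, around Chd2 1 of 4 was higher and 2 lower, and around Jmjd1c all 3 were higher. Over the panel, 29.5% of genes were higher and 34.4% lower. Chd2 was higher while Rgma (0.05, SE 0.09) did not pass and 1810026B05Rik was lower (-0.23, SE 0.09). That transcript lies on the same strand as Chd2 and shares 2628 of its 14300 exonic bases in the later annotation, so reads there could be counted for either.

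Cbx5 was higher together with Hnrnpa1 (0.56, SE 0.13), an RNA-binding protein gene on one side, while Smug1 on the other did not pass (-0.08, SE 0.08). Jmjd1c was higher together with Reep3 (0.62, SE 0.11), whose span overlaps its own on the opposite strand with 0 shared exonic bases, and with Ado (0.18, SE 0.07). Zfp281 was higher together with Kif14 (0.24, SE 0.06) and with Nr5a2 (0.46, SE 0.06), which encodes a nuclear receptor of embryonic stem cells. Sirt7 was lower, as was Pcyt2 (-0.43, SE 0.09), and Mafg on the other side was higher (0.17, SE 0.07). Mafg shares 124 of the 5148 exonic bases of Sirt7 on the same strand. Beside Bend4, Slc30a9 was lower (-0.38, SE 0.07) with a ratio that moved toward 129 (0.24, SE 0.06, adjusted p = 0.0139, edgeR), while linc1536 did not pass (0.11, SE 0.17).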

How the data were processed

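Poly(A)+ RNA after hybrid selection was measured in 14 clones, grouped by the enhancer in the sample titles. The authors deposited whole-number read counts per gene in a 129 and a CAST column for each clone, per the file headers. These counts are not normalized. Per the submitters' processing notes the genome build was mm9, and the aligner, the counter, its use of strand and the rule for assigning alleles are not given in the sources used here. Genotypes came from the deposited genotype table. In each clone 79.1% to 88.6% of counts from 1 to 19 were even, so reads are not independent molecules. Wilson intervals were computed on reads as counted, so they are too narrow even for counting error, and they leave out differences between clones. A duplicate row (1 gene) was dropped, and 471 genes remained. No clone was merged with another: over the 26 pairs of clones with the same genotype, chi-square per degree of freedom was 3.47 to 25.9 on reads, or 1.73 to 13.0 if both mates of each fragment had been counted, and other repeats of a molecule were not modelled. All clones share a parental line, and the p-values reflect only how such clones vary.

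Tests used R 4.3.3 with edgeR 4.0.16 and limma 3.58.1 on genes with a mean of at least 10 reads per clone, with TMM factors from summed counts and Benjamini-Hochberg adjustment at 0.05 over all genes tested. Ratios were fitted on both allele columns with clone, allele and the allele-by-group interaction. CPM values are counts over the TMM-adjusted library size. Alternatives were DESeq2 1.42.0 (without independent filtering), median-of-ratios size factors, no filter or a minimum mean of 50 reads, 1 set alone, KO against +/- clones, and each clone left out. The scripts were tested on simulated counts. All 7 genes were named in every comparison, with other regulators by list, the 2 genes most like each member (for Cbx5 not reported here) and the nearest panel genes within 1 Mb. Gene order came from GENCODE (428 genes matched by symbol, 23 by older symbol, 20 unmatched), whose later build is not that of the counts, so its coordinates are not given. The members and lists were chosen with earlier results of these data known.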

Additional observations from a re-analysis of the deposited data

Results flagged for a closer look

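In 56 checks of a gene, measure and genotype group for a clone far from the rest, 5 stood out. The rule's critical value lets about 1 in 20 groups through by chance, and the checks are not independent, since a summed level and its alleles share reads and 4 of the 5 come from 2 genes each seen in 1 clone. Zfp281 in E7 had a summed level of 2318 CPM against 1680.3 to 1914 CPM in the other +/- clones of Chen2008-1, and a CAST level of 1284 CPM against 997 to 1101 CPM. Cbx5 in G2 had 3108 CPM against 3709 to 3920.2 CPM in the other KO clones, and a 129 level of 1580 CPM against 2015 to 2056 CPM. Bahcc1 in G2 had a 129 share of 73.1% against 59.8% to 63.2%. G2 had 227 reads of Bahcc1. The change between the sets differed between the copies, by the test of that difference, for Chd2 (-0.24 on the log2 scale), Jmjd1c (0.35), Bahcc1 (0.37) and Bend4 (0.55).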

How the results depend on the processing

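No paired analysis was possible because the clones carry no shared replicate numbers. Under the alternatives that kept all clones of both sets or compared KO with +/- clones, 248 to 292 genes passed for summed level, 204 to 244 for 129, 200 to 250 for CAST and 50 to 59 for the ratio between sets. With each clone left out the ranges were 270 to 288, 216 to 247, 223 to 241 and 44 to 60. The genes passing the ratio by deleted chromosome in Chen2008-1 fell to 2 without D2 (2 to 4 over all clones left out), which leaves D10 as the single -/+ clone, assumed to vary like the others. Cbx5, Chd2, Jmjd1c, Zfp281, Bend4 and Bahcc1 kept their direction and call in summed level in every alternative run. Sirt7 passed on 129 without D10 or H7, and on CAST without D10 or G2.

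Differences near 0 changed sign in some alternatives, and the cause was not tested. Sirt7 by deleted chromosome was 0.010 in level with DESeq2 (-0.0076 with edgeR), and Cbx5 for KO against heterozygote was 0.00067 when Chen2008-25 clones were fitted alone. With each clone left out, the Sirt7 ratio ran from -0.065 to 0.037 between sets and from -0.033 to 0.0080 over all clones. By deleted chromosome, the level ran from -0.24 to 0.0060 for Cbx5, from -0.17 to 0.072 for Zfp281, from -0.31 to 0.17 for Sirt7 and from -0.28 to 0.24 for Jmjd1c. The ratio there ran from -0.036 to 0.21 for Chd2, from -0.50 to 0.051 for Jmjd1c, from -0.093 to 0.014 for Cbx5 and from -0.095 to 0.095 for Sirt7. By deleted chromosome, the low end of each level range came with D2 left out and the high end with D10 left out. D2 and D10 are the only -/+ clones of Chen2008-1. The ratio ranges also ended with D2 or D10 left out, except the low end for Cbx5 and high end for Sirt7 (without B8). The Cbx5 level for KO against heterozygote ran from -0.041 to 0.035. Depth limits D10, with 182 to 265 reads of a member. No control clone was free of both deletions.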

Other observations

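Some clones stood at the edge of their set for several regulators at once. E7 was the highest Chen2008-1 clone for 5 of the 7 genes in summed level (Cbx5, Chd2, Jmjd1c, Zfp281 and Bahcc1), and it was the highest or lowest clone for 21.4% of the 448 panel genes. H2 was the lowest Chen2008-25 clone for 4 genes (Chd2, Jmjd1c, Zfp281 and Bend4) and the highest for 1 (Bahcc1), against 45.1% of panel genes at either end. H7 was the lowest Chen2008-1 clone for 3 genes and never the highest, against 44.0% of panel genes at either end. For the 129 share, G2 was the lowest Chen2008-25 clone for 4 genes (Cbx5, Zfp281, Bend4 and Sirt7) and the highest for Bahcc1, against 46.1% of 438 panel genes at either end.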
